A study of Mus musculus with 12 samples.

Results

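Collagen and stromal matrix genes were followed through RNA of tumor-associated macrophages from mouse melanomas. The set is a list of 37 named genes out of 34989 in the files. It holds 17 collagen chains, 3 small leucine-rich proteoglycans, 7 elastic fibre and cross-linking genes, 6 adhesive or matricellular glycoproteins and 4 surface proteins of stromal cells. All 37 were found, and 35 of them had enough counts to be tested, while the fibril-associated collagen gene Col12a1 and the cross-linking enzyme gene Lox did not.

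There were 4 groups of 3 libraries, and each library pooled at least 3 tumors and held 26316328 to 39818657 estimated counts. All mice carried the same transgenes, among them the inducible Cre recombinase CreER under the promoter of the melanocyte gene Tyr, so the induced alleles act in melanocytes, and the genotype field reads wild type in all 4 groups. Control mice ate normal chow, with PBS named as the vehicle of the injections. CD40 agonist mice were injected with FGK4.5, an antibody that switches on CD40, in 10 doses of 10 mg/kg given 3 days apart. CSF1Ri mice ate chow with PLX6134, read from the group's name as an inhibitor of the CSF1 receptor, at 600 mg/kg, and combination mice received both agents. Treatment began 30 days after local tumor induction, at a volume below 100 mm3, and went on for 30 days unless tumors grew to 2 cm3 first. The mice were age-matched, and the sources used here state neither their age nor a sorting gate for the cells. The series asks whether therapies aimed at myeloid cells act together.

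Fibrillar collagens are triple helices secreted mainly by fibroblasts, and they build the fibres of connective tissue. Basement membrane collagens form sheets under endothelium and around vessel-covering cells, while proteoglycans such as decorin bind fibrils and set their spacing. Macrophages are known to make fibronectin and thrombospondin-1 and to take up collagen, whereas collagen I and decorin are classical fibroblast products. In a tumor digest, matrix RNA can therefore come from cells other than macrophages. In bulk samples, fewer cells of a type and less RNA per cell cannot be told apart.

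The promoters below are shown because these members were at or near 0 counts in some groups and well counted in others, or, for Col3a1, because it was the most abundant fibrillar collagen gene per length. RefSeq promoter entries on GRCm38.p6 matched 22 of the 37 members, with 27 start sites. Each printed sequence is the 250 bases before the start site and overlaps no annotated exon. Capitals mark matches on either strand to 4 motifs, and no base was shared by overlapping matches. The CCAAT box was searched as CCAAT and the GC box, which binds Sp factors, as GGGCGG. The TATA box was searched as TATAAA, while the SMAD element, bound by effectors of TGF-beta, was searched as CAGAC.
Col3a1 promoter, chr1:45311288-45311537, plus strand: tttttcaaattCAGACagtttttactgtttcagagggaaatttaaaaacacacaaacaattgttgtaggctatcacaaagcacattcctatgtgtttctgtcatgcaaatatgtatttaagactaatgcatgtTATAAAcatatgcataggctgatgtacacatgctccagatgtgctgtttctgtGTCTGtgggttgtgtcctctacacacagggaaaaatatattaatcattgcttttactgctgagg
Col6a3 promoter, chr1:90843972-90844221, minus strand: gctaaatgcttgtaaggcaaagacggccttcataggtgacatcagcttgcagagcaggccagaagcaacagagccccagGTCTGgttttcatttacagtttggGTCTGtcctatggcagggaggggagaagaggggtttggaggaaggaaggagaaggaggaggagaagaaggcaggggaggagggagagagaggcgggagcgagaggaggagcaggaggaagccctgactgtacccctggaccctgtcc
Postn promoter, chr3:54360857-54361106, plus strand: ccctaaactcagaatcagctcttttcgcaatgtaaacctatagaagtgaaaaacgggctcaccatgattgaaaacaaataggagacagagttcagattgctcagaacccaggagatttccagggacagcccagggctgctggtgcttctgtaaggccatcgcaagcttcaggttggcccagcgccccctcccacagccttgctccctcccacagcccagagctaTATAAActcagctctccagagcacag
Thbs2 promoter, chr17:14694263-14694512, minus strand: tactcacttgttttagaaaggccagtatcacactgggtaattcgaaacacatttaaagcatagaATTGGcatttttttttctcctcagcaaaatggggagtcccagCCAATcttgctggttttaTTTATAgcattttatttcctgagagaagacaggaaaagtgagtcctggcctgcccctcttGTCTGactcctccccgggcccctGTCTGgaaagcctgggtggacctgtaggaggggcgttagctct
Tnc promoter, chr4:64047016-64047265, minus strand: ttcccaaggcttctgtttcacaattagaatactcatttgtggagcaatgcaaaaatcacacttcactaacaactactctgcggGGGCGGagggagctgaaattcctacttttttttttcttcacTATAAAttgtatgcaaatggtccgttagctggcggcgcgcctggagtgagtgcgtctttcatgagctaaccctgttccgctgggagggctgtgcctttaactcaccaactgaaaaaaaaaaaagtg
TATAAA lay 26 bases before the start of Postn, 117 before that of Col3a1 and 126 before those of Tnc and Thbs2, in Thbs2 on the opposite strand. It was found in 18.5% of the members' promoters and in 12.4% of all 32851. Windows were counted per start site, and the same Tnc site was counted in overlapping windows, 126 and 205 bases before separate starts. CAGAC was found in 55.6% of the members' promoters against 42.2% of all, GGGCGG in 55.6% against 32.7%, and CCAAT in 25.9% against 33.9%. Overlapping windows also counted the same Fbln1 CAGAC sites and the same Tnc GGGCGG site more than once. Such matches describe letters in these windows only.

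Fn1, which encodes fibronectin, and Thbs1, which encodes thrombospondin-1, made up most of what was counted. Levels are given as CPM, counts scaled to library size by TMM, and between genes as TPM, which divides by transcript length. Fn1 averaged 352 TPM over the 12 libraries, above 98.7% of all genes in the files, and Thbs1 82.5 TPM, above 95.2%. Next came Sparc (22.6 TPM), Thy1 (16.3), Dcn (12.4), Col3a1 (9.89) and Col1a1 (6.63). At the other end, Col12a1 averaged 0.0249 TPM from 42 counts in all. Fn1 and Thbs1 together held between 79.2% and 97.8% of the summed CPM of the 37 genes in a library, so a sum over all 37 mostly reports this pair.

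**Figure D1:**
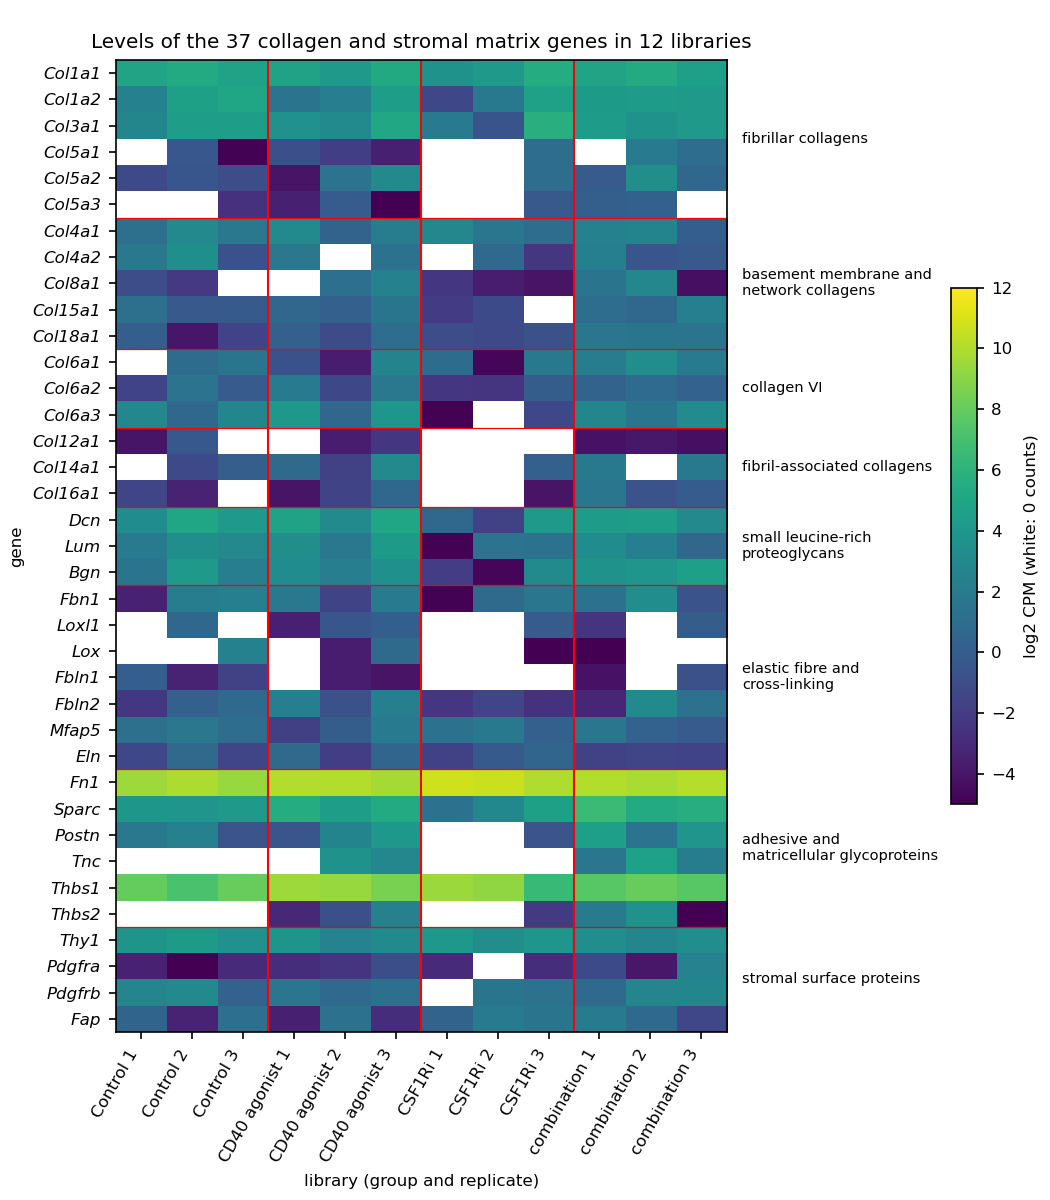
Log2 CPM of each of the 37 genes (rows, by role) in each of the 12 libraries (columns, by group and replicate), with white for 0 counts. Fn1 and Thbs1 are the brightest rows, and CSF1Ri replicates 1 and 2 have 14 white cells each against 4 in CSF1Ri replicate 3.

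Libraries of one group differed widely in the other 35 genes. Their summed level was 123, 241 and 181 CPM in Control replicates 1 to 3, 205, 118 and 322 under the CD40 agonist, 53.3, 63.9 and 221 under CSF1Ri and 303, 286 and 222 under the combination. Replicates 1 and 2 of CSF1Ri lay below all other libraries, while CSF1Ri replicate 3 lay among the Control values. Keratinocyte markers were low beside them, with 7 of 7 lower under CSF1Ri than in Control (median log2 difference -2.88) and 6 of 7 higher in the combination than in CSF1Ri (median 2.85). Their sum was 2.58, 3.56 and 6.24 CPM under CSF1Ri and 13.7, 60.8 and 13.6 in Control. It was 10.5, 6.76 and 18.9 CPM under the CD40 agonist and 52.0, 1.49 and 52.4 under the combination. The keratinocyte sum was thus also low in CSF1Ri replicate 3 and lowest in combination replicate 2, where the 35 matrix genes were not low. The part of keratinocytes in the matrix levels was not tested. Of the 33 tested members other than Fn1 and Thbs1, 17 were at their lowest or tied for it in CSF1Ri replicate 1 and 16 in replicate 2, and 9 were at their highest in combination replicate 2. Members with at least 10 counts numbered 13, 18 and 26 in the CSF1Ri libraries, 25 to 27 in Control, 25 to 32 under the CD40 agonist and 31 to 32 under the combination. Both CSF1Ri replicate 3 and combination replicate 2 were also apart from their groups over all tested genes. On the first principal component of log2 CPM, which held 18.6% of the variance, combination replicate 2 lay at 9.84 against -72.0 and -59.2, and CSF1Ri replicate 3 at 55.9 against 91.0 and 96.4. Macrophage markers summed to 33322 CPM in combination replicate 2 and to at most 24035 elsewhere. Without combination replicate 2, edgeR called 0 members in each of the 7 comparisons.

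The log2 difference of this sum from Control was 0.18 for the CD40 agonist, -0.94 for CSF1Ri and 0.61 for the combination. Without CSF1Ri replicate 3 the CSF1Ri value was -1.58. The CD40 agonist value changed sign without Control replicate 1 (-0.08) or CD40 agonist replicate 3 (-0.17), so it has no stable direction. The combination lay 1.56 above CSF1Ri, and 2.20 above it without CSF1Ri replicate 3.

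**Figure D2:**
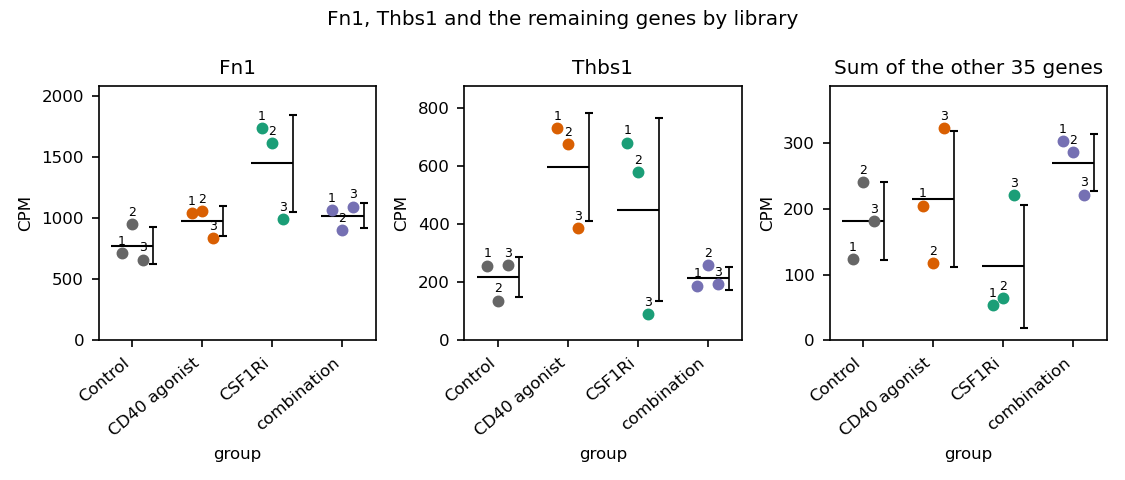
CPM of Fn1, of Thbs1 and of the other 35 genes summed, by group, with numbered points for replicates, bars for means and error bars for SD (n = 3). CSF1Ri replicates 1 and 2 hold the 2 highest Fn1 levels and the 2 lowest sums of the other genes, while CSF1Ri replicate 3 sits apart from them in all 3 panels.

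Among the adhesive and matricellular glycoproteins, Fn1 (ENSMUSG00000026193, chr1:71585520-71653200, minus strand) encodes fibronectin, a large glycoprotein that cells bind through integrins. Its level was 716, 951 and 662 CPM in Control, 1040, 1059 and 838 under the CD40 agonist, 1738, 1618 and 996 under CSF1Ri and 1069, 903 and 1097 under the combination. By these gene sums, all 3 CSF1Ri libraries were above all 3 Control libraries, and the CD40 agonist and combination libraries overlapped Control. The fitted log2 difference of CSF1Ri from Control was 0.90 ± 0.21 (SE, edgeR quasi-likelihood adjusted p = 0.166), which did not pass the test. When CSF1Ri replicate 3 was left out it was 1.09 and passed (edgeR adjusted p = 0.0272). Here and below, leaving out CSF1Ri replicate 3 keeps only CSF1Ri replicates 1 and 2 and drops the library that differs from them. A pass in such a fit is therefore not separate evidence of a difference. The interaction, the effect of an agent on top of the other less its effect by itself, was -0.84 ± 0.29 (adjusted p = 0.478). The combination mean of 1023 ± 105 CPM (SD, n = 3) lay below the CSF1Ri mean of 1451 ± 399, and CSF1Ri replicate 3 fell among the combination libraries.

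Most Fn1 counts were not assigned to transcripts that encode the whole protein. The authors' estimated counts placed 69.2% of them, and 60.6% to 78.7% in single libraries, on ENSMUST00000185408, a 4022-base transcript of 17 exons annotated as a retained intron. It covers the end of the gene, from chr1:71585526 to 71609567. Full-length coding transcripts held 18.6% to 33.8% per library. Full-length fibronectin RNA differs by the EDA exon, a 270-base coding exon whose inclusion is known from wounds and tumors. It is shown because the libraries differ in it more than the groups do.
Fn1 EDA exon, chr1:71603660-71603929, minus strand: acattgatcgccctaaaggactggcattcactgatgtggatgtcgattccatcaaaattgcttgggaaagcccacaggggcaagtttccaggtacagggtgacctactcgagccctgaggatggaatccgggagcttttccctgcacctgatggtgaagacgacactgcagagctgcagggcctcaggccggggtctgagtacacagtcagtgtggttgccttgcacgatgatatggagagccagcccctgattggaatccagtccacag
The sequence is that of the GENCODE M21 transcripts on GRCm38, and 4 of the 7 full-length transcripts hold it. They took 40.1%, 41.7% and 53.6% of full-length Fn1 TPM in Control, 59.8%, 36.9% and 41.1% under the CD40 agonist, 34.7%, 47.9% and 32.8% under CSF1Ri and 68.7%, 38.1% and 36.3% under the combination. Every group overlapped every other. The EDB exon, the other extra domain of fibronectin, took between 0% and 4.90%. The retained-intron transcript spans the place of the EDA exon without holding it, so these shares concern the full-length transcripts alone.

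**Figure D3:**
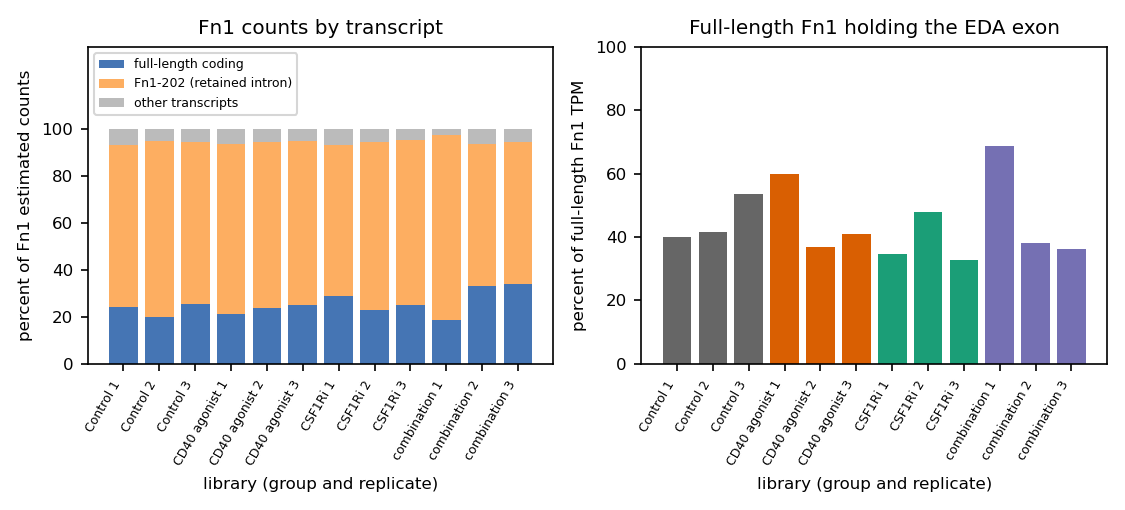
Left, share of Fn1 estimated counts on full-length coding transcripts, on the retained-intron transcript and on other transcripts in each library. Right, share of full-length Fn1 TPM on transcripts with the EDA exon, from 32.8% in CSF1Ri replicate 3 to 68.7% in combination replicate 1.

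Thbs1 (ENSMUSG00000040152, chr2:118111876-118127133, plus strand) encodes thrombospondin-1, a matricellular protein that limits vessel growth and can activate TGF-beta. It stood at 257, 137 and 260 CPM in Control and at 730, 675 and 385 under the CD40 agonist, with no overlap. With CSF1Ri it stood at 681, 579 and 90.3 CPM, where replicate 3 was the lowest of all 12 libraries. With the combination it was back in the Control range, at 188, 259 and 194 CPM. The CD40 agonist differed from Control by 1.45 ± 0.57 on the log2 scale (edgeR adjusted p = 0.603), and the combination from the CD40 agonist by -1.48 ± 0.57 (adjusted p = 0.458). Its interaction of -2.53 ± 0.80 was among the 2 smallest adjusted p values of the members in that comparison (adjusted p = 0.451). The interaction without CSF1Ri replicate 3, the CSF1Ri library at 90.3 CPM, was -3.00 and passed (edgeR adjusted p = 0.0415).

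Sparc (ENSMUSG00000018593, chr11:55394500-55423183, minus strand) encodes a collagen-binding protein made by fibroblasts, endothelium and melanoma cells. Its level was 16.0, 14.6 and 18.5 CPM in Control, 46.8, 23.0 and 42.7 under the CD40 agonist, 94.4, 42.2 and 47.8 under the combination and 2.58, 7.57 and 25.5 under CSF1Ri. Both groups with the antibody were above all Control libraries. The combination differed from Control by 1.91 ± 0.66 (edgeR adjusted p = 0.213) and from CSF1Ri by 2.37 ± 0.67 (adjusted p = 0.0987). The latter was 3.61 without CSF1Ri replicate 3, the CSF1Ri library at 25.5 CPM, and passed (edgeR adjusted p = 0.0223).

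Tnc (ENSMUSG00000028364, chr4:63959785-64047015, minus strand) encodes tenascin-C, which is made in wounds and tumor stroma. It had 0 counts in all Control and all CSF1Ri libraries and in CD40 agonist replicate 1. The other CD40 agonist libraries held 12.7 and 7.21 CPM, and the combination held 3.19, 26.5 and 4.49 CPM. Against a floor of 3 counts over the group at 0, the mean was at least 209-fold higher under the CD40 agonist than in Control (edgeR adjusted p = 0.524). The combination was at least 358-fold higher than Control (adjusted p = 0.156) and at least 343-fold higher than CSF1Ri (adjusted p = 0.112). These bounds rest largely on single libraries. Leaving out combination replicate 2 lowered them to 121-fold and 116-fold (edgeR adjusted p = 0.221 and 0.147), and leaving out CD40 agonist replicate 2 lowered that of the CD40 agonist to 113-fold. Such floors cover counting error only.

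Thbs2 (ENSMUSG00000023885, chr17:14665500-14694235, minus strand) encodes thrombospondin-2, a relative of thrombospondin-1 made mainly by fibroblasts. It also had 0 counts in all Control libraries. It held 0.118, 0.550 and 5.38 CPM under the CD40 agonist, 3.81, 11.9 and 0.0255 under the combination and 0, 0 and 0.233 under CSF1Ri. The means were at least 63.4-fold higher than Control under the CD40 agonist (edgeR adjusted p = 0.563) and at least 165-fold higher under the combination (adjusted p = 0.174). Leaving out combination replicate 2 lowered the latter to 60.4-fold (edgeR adjusted p = 0.257), and leaving out CD40 agonist replicate 3 lowered the former to 10.5-fold. CD40 agonist replicate 3 held 185 counts against 4 and 14, and combination replicate 3 had 1 count.

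Postn (ENSMUSG00000027750, chr3:54361109-54391037, plus strand) encodes periostin, a collagen-organising protein of activated fibroblasts. It stood at 3.43, 5.38 and 0.703 CPM in Control, 0.735, 6.41 and 17.0 under the CD40 agonist, 24.5, 2.78 and 14.7 under the combination and 0, 0 and 0.700 under CSF1Ri. CSF1Ri lay below every Control library by the narrowest of margins, since its replicate 3 nearly matched Control replicate 3. The log2 difference was -3.70 ± 1.57 (edgeR adjusted p = 0.495). The combination lay 5.83 ± 1.71 above CSF1Ri (adjusted p = 0.107).

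Markers of melanocytes and Schwann cells are given beside these glycoproteins, since both cell types make some of them. The summed level of 10 melanocyte and melanoma markers ran from 21.5 to 26.9 CPM in Control, 38.2 to 63.2 under the CD40 agonist, 13.2 to 17.8 under CSF1Ri and 28.5 to 114 under the combination. The 7 Schwann cell markers summed to 1.17 to 14.9, 11.6 to 27.5, 1.53 to 6.0 and 18.0 to 41.1 CPM in the same order. Within the combination, replicate 1 was highest in Sparc, Postn and the melanocyte sum, while replicate 2 was highest in Tnc and Thbs2 and lowest in the melanocyte sum. Sox10 had a mean of 0 CPM in Control and CSF1Ri, and Mlana and Tyrp1 had 0 in CSF1Ri. The part of melanoma or Schwann cells in these levels was not tested.

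The fibrillar collagens were led by the chains of collagen I and III. Col1a1 (ENSMUSG00000001506, chr11:94936224-94953042, plus strand) varied least of these 3, at 30.2, 41.3 and 27.4 CPM in Control, 27.2, 18.6 and 39.3 under the CD40 agonist, 12.7, 18.1 and 45.0 under CSF1Ri and 30.1, 42.4 and 24.6 under the combination. Its partner chain Col1a2 (ENSMUSG00000029661, chr6:4504814-4541544, plus strand) ranged from 0.407 CPM in CSF1Ri replicate 1 to 32.3 in Control replicate 3. Col3a1 (ENSMUSG00000026043, chr1:45311538-45349706, plus strand) ranged from 0.675 in CSF1Ri replicate 2 to 52.5 in CSF1Ri replicate 3, so its lowest and highest libraries belong to the same group. The combination libraries were close to each other, at 17.2 to 20.1 CPM for Col1a2 and 13.6 to 21.4 for Col3a1.

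Collagen I protein joins 2 chains from Col1a1 with 1 from Col1a2, and the RNA ratio per length varied around that. Col1a1 over Col1a2 in TPM was 4.94, 1.45 and 0.767 in Control, 8.23, 3.44 and 1.64 under the CD40 agonist, 23.2, 4.25 and 1.53 under CSF1Ri and 1.28, 1.91 and 1.26 under the combination. The highest ratio rests on 12 counts of Col1a2. The collagen V genes, whose product starts fibril assembly, were low. Col5a1 reached at most 4.07 CPM, Col5a2 10.7 and Col5a3 1.22, each in combination replicate 2, and all 3 had 0 counts in CSF1Ri replicates 1 and 2.

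Basement membrane and network collagens were led by Col4a1 (ENSMUSG00000031502, chr8:11198423-11312826, minus strand), at 1.05 to 8.82 CPM with no group apart from the others. Coding transcripts held 80.6% of Col4a1 counts, but 0% in Control replicate 3 and in CSF1Ri replicate 2. Col4a2 (ENSMUSG00000031503, chr8:11312805-11449287, plus strand), which encodes the other chain of the same protein, ranged from 0 to 10.9 CPM. The genes start head to head with start sites 21 bases apart and overlap there, and the libraries carry no strand, so reads at that end cannot be told apart. Col18a1, whose protein releases the fragment endostatin, was 3.21, 2.98 and 2.88 CPM under the combination, above all libraries of the other groups. The highest of these was 2.15 CPM, in CD40 agonist replicate 3. Its log2 difference from Control was 2.59 ± 0.93 (edgeR adjusted p = 0.229). In TPM its group means were closer, at 1.22 ± 0.308 (SD, n = 3) under the combination and 0.874 ± 0.241 under CSF1Ri. They were 0.626 ± 0.352 TPM under the CD40 agonist and 0.601 ± 0.457 in Control. The gene Slc19a1 overlaps Col18a1 on the opposite strand, which these libraries do not separate. Col15a1, a related collagen next to basement membranes, was 0.238, 0.450 and 0 CPM under CSF1Ri against 2.40, 0.823 and 0.871 in Control, with no overlap (-2.57 ± 1.13, adjusted p = 0.511). Col8a1, a network collagen of vessels, stayed below 0.6 CPM in all Control and CSF1Ri libraries and reached 5.55 and 7.32 in CD40 agonist replicate 3 and combination replicate 2.

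Endothelial and pericyte markers are given beside these collagens, whose RNA vessels also hold. The 10 endothelial markers summed to 57.5 to 82.3 CPM in Control, 78.7 to 116 under the CD40 agonist, 43.8 to 73.8 under CSF1Ri and 54.8 to 71.7 under the combination. The 10 pericyte and smooth muscle markers were at 119 CPM in CD40 agonist replicate 1 and between 10.1 and 33.4 elsewhere. Col4a1 was at its highest, and Col6a3 too, in that same CD40 agonist replicate 1. Others were not: Col4a2 and Pdgfrb were highest in Control replicate 2, and Col8a1, Col15a1 and Col18a1 in combination libraries. Col8a1 had 0 counts in CD40 agonist replicate 1. The part of vessel cells in these levels was not tested.

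Collagen VI forms beaded filaments around cells and fat, and its Col6a3 chain is needed for assembly. Col6a3 (ENSMUSG00000048126, chr1:90765923-90843971, minus strand) stood at 7.32, 1.65 and 6.93 CPM in Control, 17.1, 1.49 and 15.3 under the CD40 agonist and 7.11, 3.05 and 9.34 under the combination. With CSF1Ri it stood at 0.0339, 0 and 0.408, below every other library, CSF1Ri replicate 3 included. The log2 difference from Control was -5.08 ± 1.30 (edgeR adjusted p = 0.217), the interaction 4.28 ± 1.61 (adjusted p = 0.512). The combination lay 5.37 ± 1.32 above CSF1Ri, with the smallest adjusted p of any member in any comparison (edgeR adjusted p = 0.0651). That last value passed without CSF1Ri replicate 3, the CSF1Ri library at 0.408 CPM (8.25, edgeR adjusted p = 0.0363). Col6a1 and Col6a2 were also higher under the combination than under CSF1Ri in every library, at 3.98 to 10.0 against 0.0375 to 3.61 CPM and at 1.28 to 1.90 against 0.187 to 1.02 CPM.

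The fibril-associated collagens were near the limit of detection. Col16a1 stood at 3.21, 0.644 and 0.970 CPM under the combination and at 0, 0 and 0.0583 under CSF1Ri (log2 difference 6.03 ± 1.85, edgeR adjusted p = 0.119). Only 33.3% of its counts lay on coding transcripts. Col14a1 ranged from 0 in 4 libraries to 7.88 CPM, and Col12a1 had at most 25 counts.

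The small leucine-rich proteoglycans were led by Dcn. This gene, which encodes decorin, stood at 9.85, 32.1 and 17.9 CPM in Control, 27.5, 8.84 and 31.9 under the CD40 agonist, 1.66, 0.300 and 17.3 under CSF1Ri and 20.2, 21.7 and 7.94 under the combination. Lum (lumican, which also sets fibril diameter) was 0.0339, 2.81 and 2.68 CPM under CSF1Ri against 3.89 to 10.9 in Control, with no overlap. Bgn, which encodes biglycan, was 0.272, 0.0375 and 8.57 CPM under CSF1Ri and 13.3, 14.5 and 24.4 under the combination, again with no overlap. Bgn passed only in fits without CSF1Ri replicate 3, the CSF1Ri library at 8.57 CPM. With that library alone left out, its log2 difference from Control was -5.73 (edgeR adjusted p = 0.0493). In the combination against CSF1Ri it was then 6.77 (edgeR adjusted p = 0.0257).

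**Figure D4:**
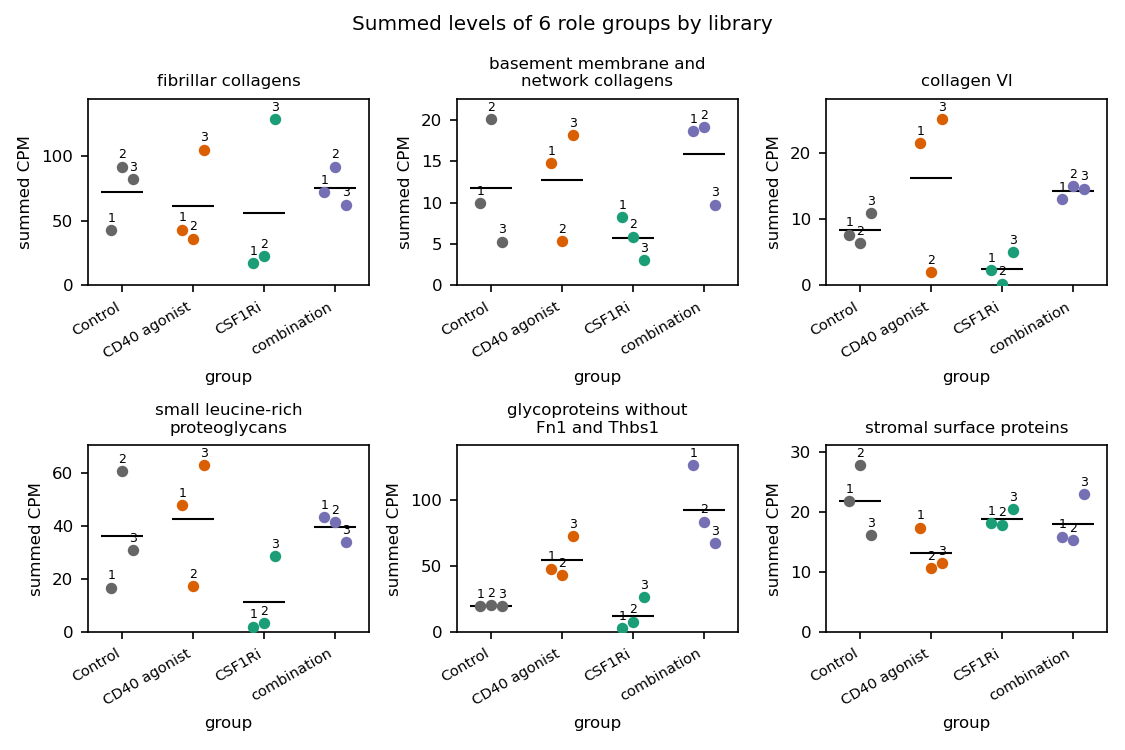
Summed CPM of 6 role groups by group, with numbered points for replicates and bars for means. Proteoglycans are at 1.97 and 3.15 CPM in CSF1Ri replicates 1 and 2 and at 28.6 in replicate 3, and glycoproteins other than Fn1 and Thbs1 are above all Control libraries in both groups with the antibody.

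Elastic fibre and cross-linking genes were low and uneven. Fbln1, an elastic fibre glycoprotein gene, had 0 counts in all CSF1Ri libraries and 1.06, 0.0949 and 0.301 CPM in Control (edgeR adjusted p = 0.365). It was 0, 0.0786 and 0.0581 CPM under the CD40 agonist, so its interaction (log2 9.16 ± 2.82, adjusted p = 0.451) is set by groups at or near 0. Lox, an enzyme that cross-links collagen, had 165 counts in Control replicate 3, 64 in CD40 agonist replicate 3 and at most 2 elsewhere. Fbn1, the main microfibril gene, ranged from 0.0339 to 9.86 CPM, Fbln2 from 0.109 to 8.20 and Mfap5 from 0.294 to 3.92. Eln, which encodes elastin, ranged from 0.275 to 1.84 CPM and had 28.6% of its counts on coding transcripts. The cross-linking enzyme gene Loxl1 reached at most 1.58 CPM.

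The stromal surface genes did not move as 1 group. Thy1, a marker of fibroblasts and of T cells, was lower in the combination (9.86, 6.64 and 9.91 CPM) than in Control (13.6, 19.4 and 12.4) and CSF1Ri (16.7, 10.8 and 14.8), with no overlap. Only 11% of its counts lay on coding transcripts, and 82.6% on ENSMUST00000213632, a single-exon retained-intron transcript. Under the CD40 agonist Thy1 was 13.9, 5.93 and 8.31 CPM. T cell markers summed to 90.3 to 110 CPM in Control and 96.8 to 137 under the CD40 agonist. They summed to 42.2 to 55.3 CPM under CSF1Ri and 57.8 to 86.9 under the combination. The part of T cells or fibroblasts in the Thy1 level was not tested. Pdgfra, the PDGF receptor of fibroblasts, was 5.69 CPM in combination replicate 3 and at most 0.523 in every other library. Its log2 difference between combination and Control (4.54 ± 1.60, edgeR adjusted p = 0.223) therefore comes from that library. Pdgfrb, the receptor of pericytes, ranged from 0 to 8.26 CPM and Fap, a protease of activated fibroblasts, from 0.0882 to 3.97, both with overlap between all groups.

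Other fibroblast genes were uneven, and their sum was led by 1 gene. A list of 17 fibroblast markers outside the 37 genes had 3 to 9 markers at 0 in each library. It summed to 29.7, 45.0 and 24.3 CPM in Control, 37.6, 39.5 and 51.2 under the CD40 agonist, 37.8, 34.4 and 40.8 under CSF1Ri and 52.2, 27.2 and 63.7 under the combination. Pi16 alone supplied a mean of 17.3 CPM in Control and 27.8 under CSF1Ri. Without Pi16, a removal chosen after its values were seen, the sum was 9.91, 25.4 and 11.7 CPM in Control and 3.53, 14.7 and 11.5 under CSF1Ri. It was then 28.9, 19.9 and 34.0 CPM under the CD40 agonist and 32.3, 15 and 34.0 under the combination. Of the 11 tested markers, 8 were lower under CSF1Ri than in Control, with a median log2 difference of -0.45 beside -0.39 for the matrix genes. The combination had 6 of 11 above CSF1Ri, with a median of 1.55 beside 1.65. None of these 11 markers passed the edgeR test in either comparison. For CSF1Ri against Control 1 marker, higher, had an unadjusted p below 0.05, or 9.09% against 9.47% of all genes. For the combination against CSF1Ri there were 4, of which 2 were higher and 2 lower, or 36.4% against 18.3%. Within this list of 17, Col6a5 was at 0 in every group, and Aspn, Clec3b, Mfap4 and Dpt were at 0 in Control. These were picked for being at 0, and the whole list summed to 24.3 to 45.0 CPM in Control. All 10 macrophage markers were kept, and they summed to at least 13329 CPM, far above any of these lists. In Control and CSF1Ri most of this sum was Lyz2, which neutrophils also express, so it is not a measure of purity. The part of fibroblasts in the matrix levels was not tested.

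**Figure D5:**
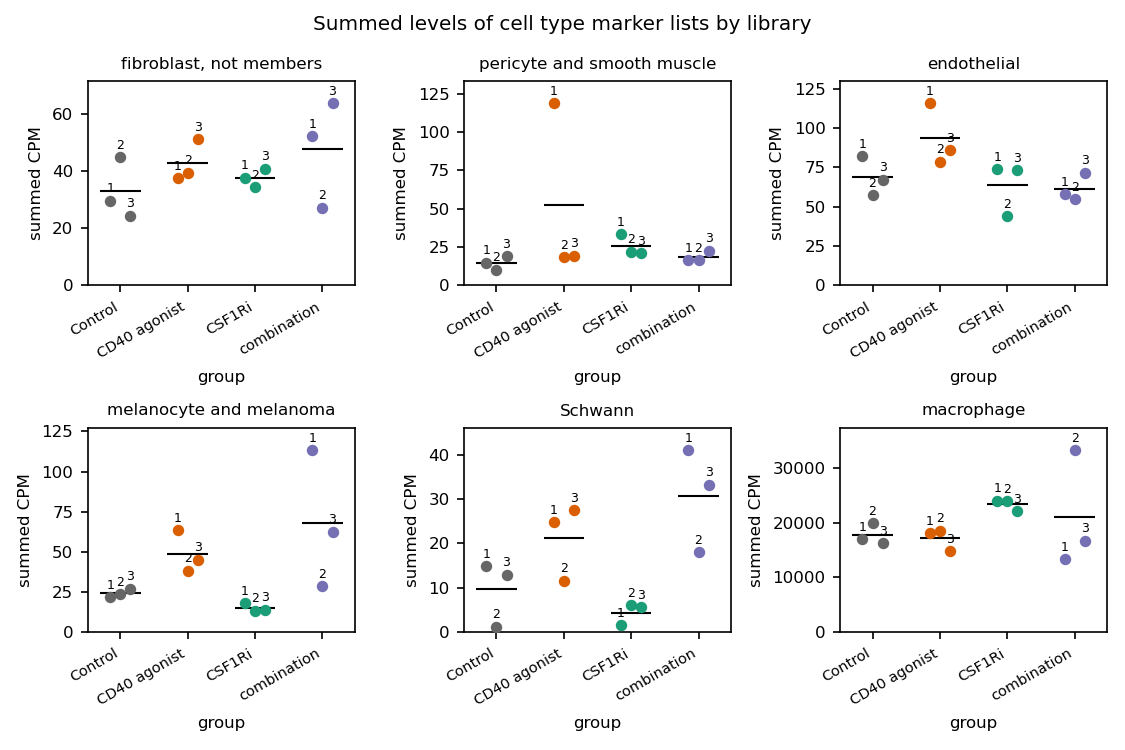
Summed CPM of 6 marker lists by group, with numbered points for replicates and bars for means. The melanocyte list is above all Control libraries (21.5 to 26.9 CPM) in every antibody-treated library. The fibroblast sum includes Pi16, which averaged 27.8 CPM under CSF1Ri and 17.3 in Control, while 8 of the 11 tested fibroblast markers were lower under CSF1Ri.

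Counted over the list, no member passed the edgeR test at an adjusted p below 0.05 in any of 7 comparisons. For the CD40 agonist against Control, 0 of 35 members passed against 0% of all 16027 genes tested. At an unadjusted p below 0.05 there were 3 members, or 8.57%, against 7.68% of all genes. DESeq2 called 1 of 35 members, Thbs2, against 194 of 15553 genes (1.25%), and limma voom 0 against 0.0312%. DESeq2 gives some genes no adjusted p. Here and below its gene totals leave these out, while its member totals keep all 35 members. Of the members, 11.4% were higher with no overlap between the groups and 2.86% lower, against 8.34% and 8.74% of all genes. The median log2 difference of the members was 0.48 (0.01 for all genes), with 26 of 35 above 0. The share of members that differed was near the background in this comparison.

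For CSF1Ri against Control, 0 members passed against 0.0125% of genes, and 14.3% had an unadjusted p below 0.05 against 9.47%. DESeq2 called 2 of 35 members, Fn1 and Col6a3, against 408 of 14655 genes (2.78%). Voom called 0 members and 0% of genes. The member higher with no overlap was Fn1 (2.86% against 7.23% of genes), and 14.3% were lower with no overlap against 8.55%. The median was -0.39, or -0.44 with genes at 0 in a group set to the floor, against -0.01 for all genes, and 22 of 35 were below 0. With CSF1Ri replicate 3 left out, edgeR called 2 members, Fn1 higher and Bgn lower, against 124 of 16775 genes (0.739%).

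The combination against Control gave 0 members against 0.774% of genes and 14.3% at an unadjusted p below 0.05 against 14.8%. DESeq2 called 4 of 35 members, Sparc, Pdgfra, Tnc and Thbs2, against 933 of 14949 genes (6.24%), and voom 0 against 0.905%. Of the members 20% were higher with no overlap and 2.86% lower, against 10.8% and 11.5% of all genes. The median was 0.46 against 0.00 for all genes, with 21 of 35 above 0. The CD40 agonist, CSF1Ri and combination comparisons share their Control libraries, so their values are set side by side only.

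The combination against CSF1Ri showed the widest difference. It gave 0 members against 1.94% of genes with edgeR, but 37.1% of members at an unadjusted p below 0.05 against 18.3%, of which 12 were higher under the combination and 1, Fn1, lower. DESeq2 called 10 of 35 members, all higher, against 1486 of 14949 genes (9.94%), and voom called 0 against 1.78%. The 10 were Col6a3, Col15a1, Col16a1, Col18a1, Sparc, Postn, Pdgfra, Fbln2, Tnc and Thbs2. With no overlap, 28.6% were higher and 2.86% lower, against 10.8% and 11.1% of genes. The median was 1.65 (1.67 with the floor) against 0.02 for all genes, with 28 of 35 above 0. Without CSF1Ri replicate 3, edgeR called 4 members against 293 of 16775 genes (1.75%). Of these, Col6a3, Bgn and Sparc were higher and Thbs1 lower (log2 -1.55, edgeR adjusted p = 0.0393).

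The combination against the CD40 agonist gave 0 members against 0% of genes, 2.86% at an unadjusted p below 0.05 against 9.05%, 0 by DESeq2 against 1.73% and 0 by voom against 0.0437%. Of the members 5.71% were higher with no overlap, which were Col18a1 and Bgn, against 6.6% of genes, and Thbs1 was lower (2.86% against 6.93%). The median was 0.38 against 0.00. For the interaction, 0 members passed against 0% of genes, and 11.4% had an unadjusted p below 0.05 against 8.14%. DESeq2 called Thbs1 alone of 35 members, against 178 of 15553 genes (1.14%), and voom 0 against 0%. Without CSF1Ri replicate 3 edgeR called 1 member, Thbs1, against 15 of 16775 genes (0.0894%). In the test of any difference among the 4 groups, 0 passed against 1.2%, and 28.6% had an unadjusted p below 0.05 against 16.3%. For this test DESeq2 called 7 of 35 members against 1692 of 14655 genes (11.5%), and voom 0 against 1.15%. Without CSF1Ri replicate 3 edgeR called Fn1, Sparc and Thbs1 there, against 290 of 16775 genes (1.73%).

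Genes around matrix production were read from lists, as counts. Of 28 genes of collagen synthesis and folding 27 were tested, and 1 passed, higher in the combination than in CSF1Ri (3.7% against 1.94% of all genes). This was Ppib, an enzyme that helps procollagen fold and also acts on many other secreted proteins, at 369 ± 12.3 CPM (SD, n = 3) against 252 ± 13.3 (log2 difference 0.55 ± 0.10, edgeR adjusted p = 0.0225). It also differed among the 4 groups (adjusted p = 0.0358). Serpinh1, the collagen-specific chaperone gene, averaged 0.334 CPM in Control, 1.72 under the CD40 agonist, 0.340 under CSF1Ri and 4.23 under the combination, without passing. In TGF-beta signalling, the main inducer of collagen genes, 0 of 19 tested genes passed in any comparison. In the combination against CSF1Ri 6 of them, or 31.6%, had an unadjusted p below 0.05, against 18.3% of all genes. Of the 3 PDGF ligands tested, 0 passed, and 1 had an unadjusted p below 0.05 among the 4 groups, where 16.3% of all genes did. Of 15 tested matrix receptors and collagen uptake genes, 1 passed, the scavenger receptor and thrombospondin-1 receptor gene Cd36, in the test of any difference (edgeR adjusted p = 0.0462). That is 6.67% of these genes against 1.2% of all. Cd36 averaged 308 ± 32.5 CPM in Control, 308 ± 117 under the CD40 agonist, 81.7 ± 37.3 under CSF1Ri and 99.0 ± 42.5 under the combination.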

How the data were processed

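The 12 libraries came from 50 ng of total RNA each, by an ultra-low input kit that does not keep the strand, and were read in 75-base pairs, per the labels' protocols. The submitters' processing notes name STAR, HTSeq, DESeq2 and mm10. No source used here gives the quantifier behind the deposited transcript tables. The files deposited by the authors give an estimated count and a TPM value per transcript, per the file headers. The TPM values deposited by the authors were summed per gene and used for levels between genes and for transcript shares.

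For each gene of GENCODE M21 (GRCm38), its transcripts' estimated counts were added and rounded. Transcripts with no match held 0.378% to 0.436% of the counts and were left out. Library totals ran from 26316328 to 39818657 counts. edgeR 4.0.16 (R 4.3.3) fitted all 12 libraries with TMM scaling, filterByExpr (16027 genes kept), robust quasi-likelihood tests (8 residual degrees of freedom) and Benjamini-Hochberg adjustment over all genes. The square root of the common dispersion, a coefficient of variation, was 61.0%. The test was checked on simulated data. DESeq2 1.42.0, limma 3.58.1 (voom), other scalings, no filter, the replicate block, left-out libraries and coding transcripts alone were alternatives, the last chosen after seeing the data, as were the folds with a library left out. Differences are given with SE for up to 5 members a comparison with the smallest p below 0.05.

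The members and lists were chosen with earlier results of these data known. Whether the mice of different samples were housed apart is not stated, so a p-value reflects only how far these pools differ. The reads carry no molecular identifiers, so floors cover counting error only. The mice's complete genotype is not reported here.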

Additional observations from a re-analysis of the deposited data

How the results depend on the processing

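edgeR called 0 members in each comparison, and so did limma voom, DESeq2's size factors in edgeR, no filter on low counts, coding transcripts alone and fits on only the compared groups. DESeq2's own test called 1 member for the CD40 agonist, 2 for CSF1Ri and 4 for the combination against Control, 10 for the combination against CSF1Ri, 1 for the interaction and 7 among the 4 groups. Bias-adjusted edgeR called 1 for the combination against Control (Col18a1), 4 against CSF1Ri and 1 among the groups. With a replicate block edgeR called 1, Col6a3, in the combination against CSF1Ri (adjusted p = 0.0382). Libraries of the same replicate number were hardly correlated (18 pairs, r from -0.06 to 0.06), yet 7 of 12 libraries matched their own number best. Whether the numbers pair the samples is therefore not settled by this check. Leaving out 1 library gave 0 to 2 for CSF1Ri, 0 to 4 for the combination against CSF1Ri (1, Tnc, without CD40 agonist replicate 1), 0 to 1 for the interaction and 0 to 3 among the groups. Leaving out CSF1Ri replicate 3 and combination replicate 2 gave 4, 5, 1 and 3 in that order. The cause was not tested.

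The sum of all 37 genes lay 0.60 above Control on the log2 scale under the CD40 agonist, 0.73 under CSF1Ri and 0.36 under the combination. The combination lay at -0.37 against CSF1Ri and -0.24 against the CD40 agonist. Without Fn1 and Thbs1 these became 0.18, -0.94, 0.61, 1.56 and 0.44, so 3 of 5 changed sign. Without Fn1 alone the CD40 agonist value was 1.02 and the combination against the CD40 agonist -0.74. Coding transcripts alone gave 0.88 and -0.43 for the same, and deposited TPM gave 0.43 for the CD40 agonist and 0.16 for the combination. Unscaled totals gave 0.22 for the combination and moved the median of all genes by -0.15 against Control and -0.11 against CSF1Ri. Of 23 named differences under these settings, 443 values kept their side of the threshold, 28 passed it and 0 reversed. Depth limits the members under 10 counts in a library, for which a level cannot be told from counting error.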

Other observations

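Among macrophage genes, the complement C1q genes, which encode subunits of a soluble pattern receptor typical of resident macrophages, had their lowest group means under CSF1Ri. C1qb averaged 61.2 CPM in Control, 192 under the CD40 agonist, 7.58 under CSF1Ri and 100.1 under the combination, and C1qa 16.2, 67.6, 2.18 and 35.7. The log2 difference of C1qb between the combination and CSF1Ri was 3.72 ± 0.93 (edgeR adjusted p = 0.0679), which did not pass. Lyz2, the lysozyme gene of macrophages and neutrophils, averaged 21522 CPM under CSF1Ri against 15680 in Control.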
